A study of Mus musculus with 6 samples.

Results

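The genes described here encode the antioxidant and glutathione enzymes of the mouse brain. They were selected by gene symbol, not by measured values: the glutathione transferases (Gsta, Gstm, Gstp, Gstt, Gstk, Gsto and Gstz genes), the glutathione peroxidases (Gpx), the peroxiredoxins (Prdx), Sod1, Sod2, Sod3, Cat, Txn1, Txn2, Txnrd1, Txnrd2, Gclc, Gclm, Gss, Gsr, Nqo1, Hmox1 and Hmox2. This gave 50 of the 18491 genes measured. Brain messenger RNA was sequenced from C57BL/6N mice, an inbred laboratory strain, at postnatal day 28. There were 3 wild-type libraries and 3 Mettl5-/- libraries, called knockout here, each carrying a number from 1 to 3 within its genotype. Mettl5 encodes the methyltransferase that places N6-methyladenosine on the RNA of the small ribosomal subunit. The sources used here give neither the deleted part of the gene nor a separate animal for each library, so each p-value reflects spread among these libraries alone, which may be technical.

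Reactive oxygen species are by-products of respiration and oxidase activity, and the brain, with its high oxygen use and lipid-rich membranes, relies on enzymes that remove them. Superoxide dismutases turn superoxide into hydrogen peroxide, which catalase, the glutathione peroxidases and the peroxiredoxins break down. The peroxidases draw their electrons from glutathione or thioredoxin, which reductases regenerate with NADPH, while glutathione transferases couple glutathione to reactive electrophiles. Many of these genes are targets of the transcription factor Nrf2, which binds the antioxidant response element in their promoters.

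The most abundant of these transcripts exceeded 200 FPKM in both genotypes, and no member passed the test of a difference between them after correction for all genes tested. Levels are FPKM, fragments assigned to a gene divided by transcript length and by the library's mapped total, which allow comparison between genes because they are scaled by length. A gene was tested when its mean over the 6 libraries reached 1 FPKM, which 42 of the 50 members did. In limma on log2(FPKM + 1), with Benjamini-Hochberg adjustment over 12885 genes, 0 members passed an adjusted p of 0.05. Their adjusted p ran from 0.790 to 0.999. The background was also empty, with 0% of all genes tested passing. Below an unadjusted p of 0.05 lay 2 members, Hmox1 and Gstt3, both lower in the knockout. These are 4.76% of the members, against 6.05% of all genes (2.37% higher and 3.69% lower). Gstt3 reached the filter only through its wild-type mean, so its place in this count is no support for a difference. Among the 40 members whose mean reached 1 FPKM in both genotypes, 1 lay below that p (2.5%, against 5.96% of such genes).

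The sequence that sets the selenium-containing members apart is a TGA codon, normally a stop signal, which the ribosome reads as selenocysteine in the active site. It is annotated in 6 members, namely Gpx1, Gpx2, Gpx3, Gpx4, Txnrd1 and Txnrd2. The other 4 glutathione peroxidases have a cysteine codon, TGC or TGT, at the aligned place. The printed windows are coding-strand sequence from GENCODE M21 transcripts on GRCm38 and are shown because they are the feature that divides the peroxidase family. The TGA or cysteine codon is in capitals. Those of Gpx1 (chr9:108339436-108339468), Gpx3 (chr11:54907241-54907273), Gpx4 (chr10:80054722-80054754), Txnrd1 (chr10:82896022-82896042) and Txnrd2 (chr16:18477757-18477777) lie on the plus strand. Those of Gpx7 (chr4:108403415-108403447) and Gpx8 (chr13:113045646-113045678) lie on the minus strand.
Gpx1: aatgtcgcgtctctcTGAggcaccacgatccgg
Gpx3: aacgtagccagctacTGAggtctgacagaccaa
Gpx4: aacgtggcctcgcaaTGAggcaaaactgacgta
Gpx7: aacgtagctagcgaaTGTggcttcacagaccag
Gpx8: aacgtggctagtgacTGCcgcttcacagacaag
Txnrd1: ctccagtctggctgcTGAggt
Txnrd2: actgtgactggttgcTGAggc
In the peroxidases the codon lies inside the coding sequence. In both thioredoxin reductases it is followed by a single further codon, at the redox-active end of the protein.

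A second set of sequences shows the letters of the antioxidant response element. The core TGACNNNGC was searched on both strands in the RefSeq promoter windows of GRCm38.p6, 250 bases before to 50 after each listed start site. It occurred in 7 of the 42 members with a window, which is 16.7%. Among all 27025 genes with a window the share was 14.0%. A gene could have several windows (32851 in all), and a match in any of them counted. The Txnrd1 and Gstm7 matches lay inside the annotated span of the gene. The stretches are printed in each gene's own direction with the match in capitals, and they are shown because Nrf2 is the best-known common regulator of the family. They lie on the plus strand for Gclm (chr3:122245408-122245446), Gsta3 (chr1:21240449-21240487), Gstm5 (chr3:107895797-107895835), Prdx1 (chr4:116685451-116685489), Sod1 (chr16:90220691-90220729) and Txnrd1 (chr10:82859099-82859137), and on the minus strand for Gstm7 (chr3:107931720-107931758).
Gclm: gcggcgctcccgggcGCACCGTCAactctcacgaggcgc
Gsta3: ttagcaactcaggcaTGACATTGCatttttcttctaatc
Gstm5: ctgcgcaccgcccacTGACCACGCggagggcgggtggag
Gstm7: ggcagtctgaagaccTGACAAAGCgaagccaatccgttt
Prdx1: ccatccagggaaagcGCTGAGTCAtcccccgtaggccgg
Sod1: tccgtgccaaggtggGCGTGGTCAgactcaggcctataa
Txnrd1: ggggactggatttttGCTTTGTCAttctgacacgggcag
The 7 genes did not share a direction. Fitted changes were below 0 for 5 of them and above 0 for Gsta3 and Gstm5. A match is only a run of letters, and its absence from a window says nothing about the factor.

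Expression spanned a wide range. In the wild type 7 members exceeded 100 FPKM, 18 lay between 10 and 100, 17 were tested at lower levels and 8 stayed below the filter. The most abundant was Gpx4, at 246 ± 21.8 FPKM (SD, n = 3), followed by Sod1 at 237 ± 31.5, Gstp1 at 211 ± 23.4, Gstm1 at 210 ± 23.6 and Prdx5 at 185 ± 15.9 FPKM. Down to Gstm1, neighbours in this order differed by less than the larger of their SDs, while Gstm1 and Prdx5 differed by more than either. After them came Gstm5 at 131 ± 19.8 and Prdx2 at 107 ± 9.58 FPKM. In all, the members made up between 0.52% and 0.586% of the summed FPKM of a library.

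**Figure D1:**
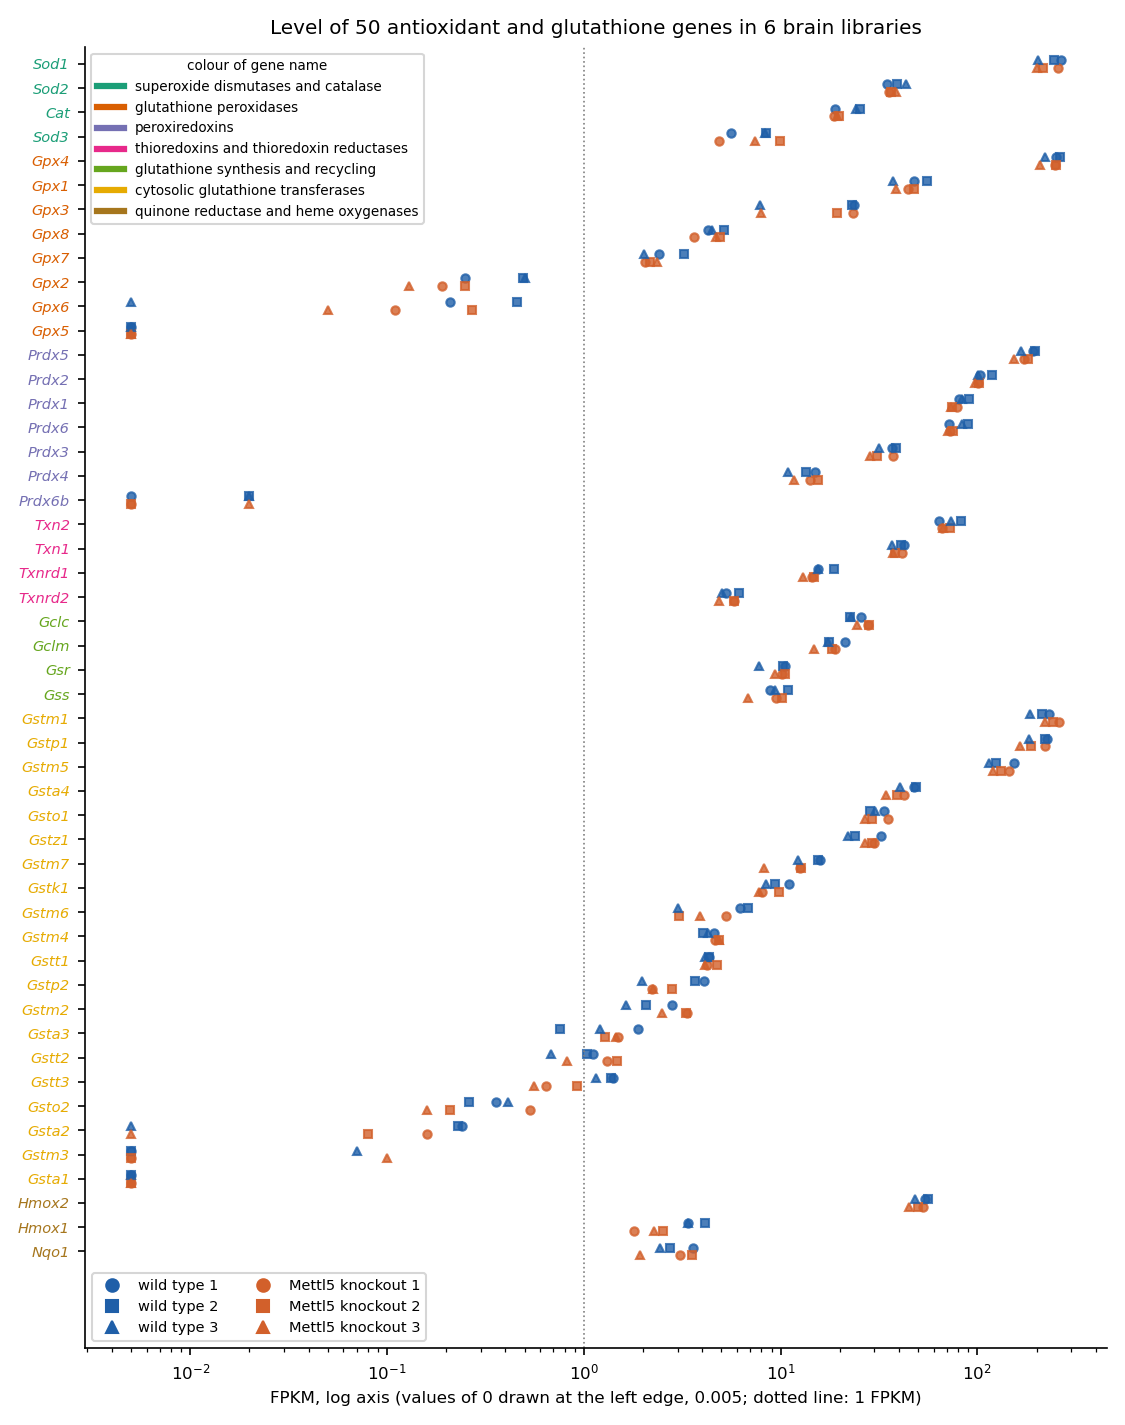
FPKM of the 50 members in each of the 6 libraries on a log axis, grouped by role (colour of the gene name); blue is wild type, orange knockout, and the symbol gives the library number. The genotypes lie close together for most members, and the 8 members left of the dotted line at 1 FPKM were not tested.

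The libraries have properties that touch every value below. FPKM sums per library ran from 350727 to 377334 and absolute depth is unknown. The Mettl5 transcript averaged 5.29 ± 0.580 FPKM in the wild type and 3.0 ± 0.728 in the knockout (SD, n = 3 each; adjusted p 0.790). Of 15 oligodendrocyte markers all were lower in the knockout, with summed FPKM of 7024 to 8383 in the wild type and 2352 to 6190 in the knockout. All 12 microglial markers were also lower (178 to 236 against 156 to 201), as were 9 of 12 astrocyte markers (1477 to 1622 against 1301 to 1844). The same held for all 8 tested choroid plexus markers (379 to 542 against 260 to 453 over the 10 listed) and 6 of 8 markers of oligodendrocyte precursors (158 to 238 against 104 to 152). No marker of these cell types was at 0 in any library. Of 12 neuronal markers 9 were lower and 3 higher, with a median log2 fold change of -0.039 against -0.064 for the astrocyte markers. Their sums were 3660 to 3847 FPKM in the wild type and 3676 to 3848 in the knockout. Of 10 endothelial markers 5 were higher and 5 lower, and of 7 tested fibroblast markers 6 were higher and 1 lower. The part of these cell types in the differences of the members was not tested, and in bulk tissue fewer cells of a type and less RNA per cell cannot be told apart. Libraries with the same number also deviated together. The number-3 library was the lowest within both genotypes for 25 of the 42 tested members (59.5%), against 24.7% of all genes tested.

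Across the tested members, 31 had a fitted change below 0 and 11 above 0. That is 73.8% lower and 26.2% higher, against 50.9% and 49.1% of all genes tested. Among the 40 members whose mean reached 1 FPKM in both genotypes, 30 were lower (75%, against 50.9% of such genes). The median log2 fold change was -0.083 for the members and -0.0032 for all genes. Leaving out knockout library 3 gave a split of 25 and 17 with a median of -0.026, and leaving out wild-type library 3 gave -0.138. The size was small on the log2(FPKM + 1) scale, which understates changes of low genes. On that scale 31 of the 42 had a 95% confidence interval that stayed within 0.5 units on either side of 0. The 3 values of one genotype lay entirely beyond those of the other for 5 members (11.9%), the same share as among all genes (11.9%, of which 5.48% were higher and 6.43% lower). Hmox1, Gstt3, Prdx1 and Txnrd1 were lower and Gstm4 higher in this sense. Of the 40 members with both means at 1 FPKM or more, 4 were separated (10%, against 11.8% of such genes). The exact permutation p of each was 0.1, the smallest that 3 against 3 libraries allow.

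**Figure D2:**
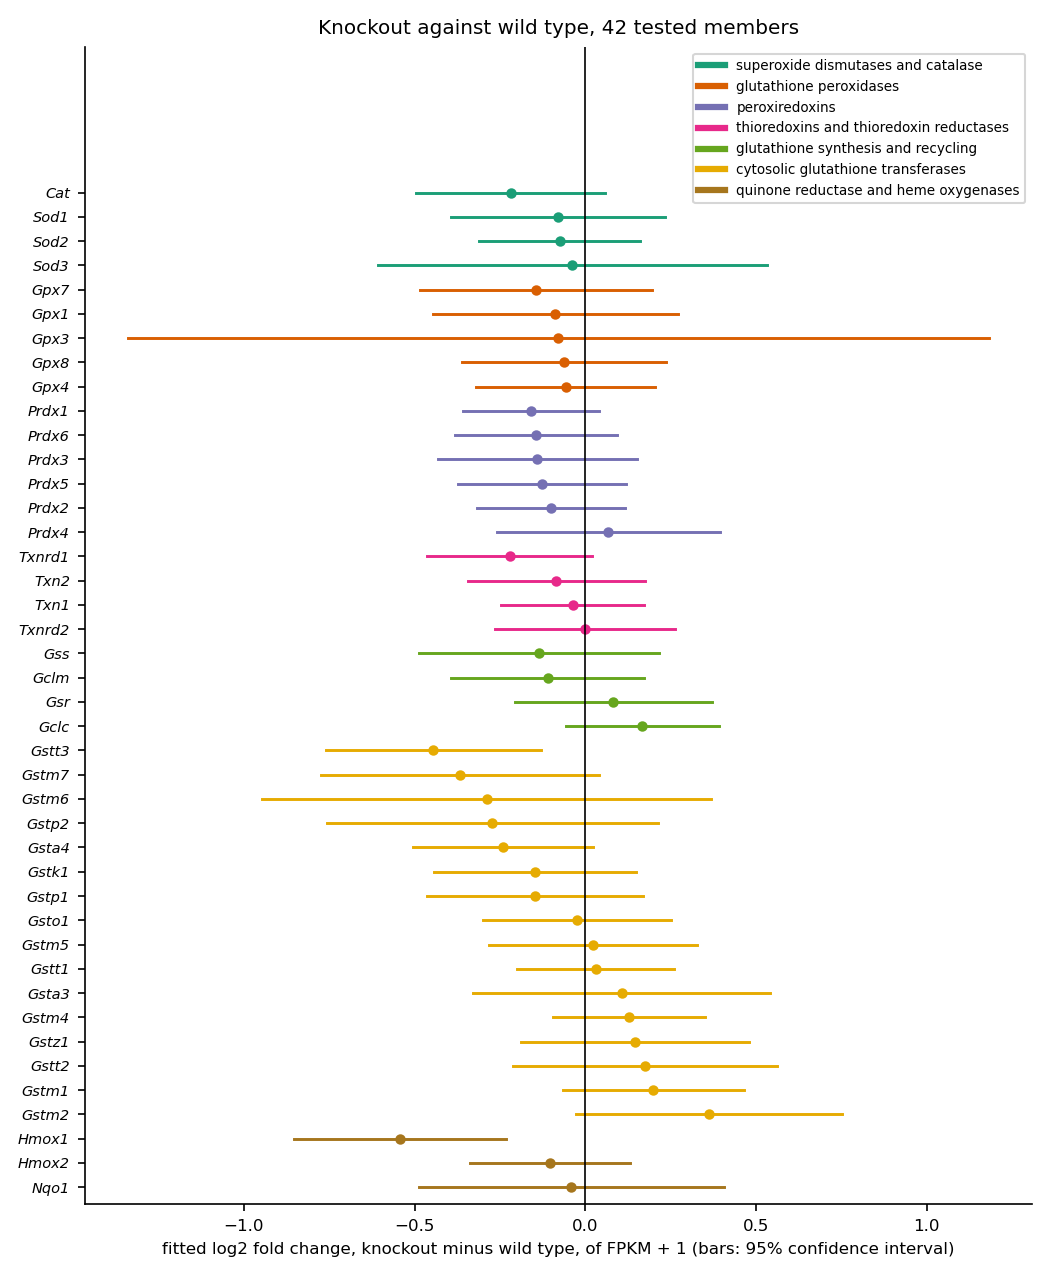
Fitted log2 fold change of FPKM + 1, knockout minus wild type, with its 95% confidence interval, for the 42 tested members grouped by role. Points left of 0 (31 members) outnumber those right of it (11), and the intervals of Hmox1 and Gstt3 are the ones that do not cross 0.

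With the library number as a block, which compares same-numbered libraries with each other, 8 members had an unadjusted p under 0.05 (19%, against 14.3% of all genes, 6.08% higher and 8.22% lower). They were Hmox1, Gstt3, Gstm7, Gsta4, Cat and Txnrd1 on the lower side and Gstm1 and Gstm2 on the higher side. No member passed the adjusted threshold in that fit either, and the lowest adjusted p was 0.285. Gstt3 reached the filter only through its wild-type mean, so its place in this count too is no support for a difference. The knockout library was the lower one in all 3 numbered pairs for 13 members (31%, against 20.5% of all genes) and the higher one in all pairs for 5 (11.9%, against 19.5%).

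Of the first line of defence, all 4 genes had fitted changes below 0 (median log2 fold change -0.077), and 0 reached an unadjusted p of 0.05. Leaving out wild-type library 3 split the 4 genes, 2 and 2, and leaving out wild-type library 1 gave a median of -0.18. Sod1, the copper-zinc superoxide dismutase of the cytosol, measured 264.87, 244.46 and 203.00 FPKM in wild-type libraries 1, 2 and 3 and 255.80, 214.90 and 202.17 FPKM in knockout libraries 1, 2 and 3. Library 3 was the lowest and library 1 the highest in both genotypes, and the ranges overlapped almost fully. The log2 fold change was -0.08 (SE 0.13; 95% interval -0.39 to 0.23). Sod2, the manganese enzyme of mitochondria, averaged 39.0 ± 4.34 and 36.9 ± 1.62 FPKM in wild type and knockout, and Sod3, the secreted enzyme, 7.49 ± 1.61 and 7.42 ± 2.53 FPKM.

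Cat, catalase, the hydrogen peroxide-splitting enzyme of peroxisomes, held 18.86, 25.46 and 24.31 FPKM in the wild type and 18.80, 19.88 and 19.40 FPKM in the knockout. The knockout values were tightly grouped, and wild-type library 1 lay among them, so the genotypes overlapped. Its fitted difference was -0.22 on the log2 scale (SE 0.12, adjusted p 0.796), and with the block the unadjusted p was 0.049 (adjusted p 0.348). Leaving out wild-type library 1 gave -0.35 and leaving out wild-type library 2 gave -0.14. Catalase is also abundant in red blood cells. The summed FPKM of 6 red cell markers was 49.87, 2834.63 and 617.39 in wild-type libraries 1, 2 and 3 and 11.76, 567.31 and 473.73 in knockout libraries 1, 2 and 3. Library 1 was the lowest within each genotype both for red cell markers and for Cat. In the wild type the marker sum ran from 49.87 to 2834.63, with Cat from 18.86 to 25.46 FPKM. In the knockout the sum ran from 11.76 to 567.31, with Cat only from 18.80 to 19.88 FPKM. The markers Hbb-bt and Slc4a1 were at 0 in 1 knockout library, and the part of red cells in the Cat values was not tested. Cat lies on chromosome 2, 33.6 megabases from Mettl5, and is 1 of 3 members there, with Gss and Prdx6b. Mettl5 ends at 69886634 on that chromosome. Prdx6b, which starts at 80292470, and the Nrf2 gene Nfe2l2, which starts at 75675513, lie nearer to it than Cat.

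The glutathione peroxidases, which reduce peroxides with glutathione, all had fitted changes below 0 in the 5 tested genes (median -0.079), with 0 at an unadjusted p under 0.05. Leaving out wild-type library 2 turned this median to 0.0012, knockout library 3 to -0.0067 and wild-type library 3 to -0.24. Gpx4, the selenoenzyme that reduces lipid hydroperoxides within membranes and so holds back ferroptosis, had 250.25, 264.60 and 221.83 FPKM in wild-type libraries and 248.57, 250.84 and 208.95 FPKM in knockout libraries. The knockout was the lower library in each numbered pair, by far less than the distance between libraries 2 and 3 of either genotype. Its log2 fold change was -0.06 (SE 0.11; 95% interval -0.32 to 0.20). Gpx1, the cytosolic selenoenzyme, averaged 46.9 ± 9.27 and 43.6 ± 4.50 FPKM.

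Gpx3, the secreted plasma form, showed the widest spread of the peroxidases. It measured 23.70, 23.01 and 7.86 FPKM in the wild type and 23.42, 19.36 and 7.96 FPKM in the knockout. Library 3 was low in both genotypes and the 2 other libraries of each were high, so the difference between library numbers far exceeded that between genotypes. In the main fit, without the block, the log2 fold change was -0.08 with a 95% interval from -1.34 to 1.18, the widest of all tested members. That interval includes the spread between library numbers. With the block the log2 fold change of Gpx3 was the same, and its SE was 0.078 in place of 0.52 (block unadjusted p 0.352, adjusted p 0.656). Gpx7 and Gpx8, the cysteine-containing peroxidases of the endoplasmic reticulum, averaged 2.55 ± 0.608 and 4.65 ± 0.456 FPKM in the wild type and 2.19 ± 0.162 and 4.42 ± 0.680 FPKM in the knockout. The 5 tested members with a TGA selenocysteine codon (Gpx1, Gpx3, Gpx4, Txnrd1 and Txnrd2) had fitted changes between -0.22 and -0.00078, and the 2 tested members with the cysteine codon lay at -0.14 and -0.06.

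The peroxiredoxins, thiol peroxidases that are oxidised and re-reduced mainly through thioredoxin, had 5 of 6 tested genes below 0 (median -0.134) and 0 at an unadjusted p under 0.05. Leaving out wild-type library 2 gave a median of -0.079, and leaving out knockout library 3 gave -0.069. Prdx5, the form shared by mitochondria, peroxisomes and cytosol, was the most abundant and measured 191.51, 195.92 and 166.40 FPKM in the wild type and 173.13, 180.15 and 153.36 FPKM in the knockout. Each knockout library lay below the wild-type library of its number, while the groups overlapped. Its log2 fold change was -0.13 (SE 0.11). For Prdx5 it was -0.060 without knockout library 3 and -0.20 without wild-type library 3. Prdx1, a cytosolic form, measured 80.65, 90.72 and 83.21 FPKM in the wild type and 78.93, 74.71 and 73.92 FPKM in the knockout. The lowest wild-type value lay just above the highest knockout value. Its fitted difference was -0.16 on the log2 scale (SE 0.085, adjusted p 0.796).

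Prdx6, the single-cysteine form that also has phospholipase activity, measured 71.64, 89.51 and 83.20 FPKM in the wild type and 72.97, 75.56 and 71.30 FPKM in the knockout. Wild-type library 1 lay within the narrow knockout range, and the other two lay above it. Its log2 fold change was -0.15 (SE 0.10). For Prdx6 it was -0.075 without wild-type library 2 and -0.23 without wild-type library 1. Prdx2, the abundant form of neurons and red cells, averaged 107 ± 9.58 and 99.8 ± 2.74 FPKM. It was highest in wild-type library 2, as were 18 of the 42 tested members. The part of red cells in the Prdx2 values was not tested. Prdx3, of mitochondria, averaged 35.7 ± 3.69 and 32.4 ± 4.57 FPKM. Prdx4, of the endoplasmic reticulum, was the exception in direction, with 13.1 ± 2.04 and 13.8 ± 1.91 FPKM.

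The thioredoxin genes, which carry electrons to the peroxiredoxins, included 4 tested genes with a median difference of -0.061 (log2), 0 of them at an unadjusted p under 0.05. Leaving out wild-type library 2 gave -0.0069, with 2 genes on each side of 0. Txnrd1, the cytosolic thioredoxin reductase, measured 15.51, 18.77 and 15.59 FPKM in the wild type and 14.50, 14.81 and 12.95 FPKM in the knockout. All knockout values lay below all wild-type values, although by less than 1 FPKM at the nearest point. The log2 fold change was -0.22 (SE 0.10, adjusted p 0.790), and the block gave an unadjusted p of 0.0268 (adjusted p 0.312). Txnrd1 stood at -0.14 when wild-type library 2 was left out. Txn2, the mitochondrial thioredoxin, had 63.71, 82.90 and 73.17 FPKM in the wild type and 66.16, 72.53 and 67.34 FPKM in the knockout, with full overlap. The cytosolic thioredoxin Txn1 averaged 39.9 ± 2.82 and 38.9 ± 2.14 FPKM. Txnrd2, the mitochondrial reductase, was nearly equal at 5.49 ± 0.569 and 5.49 ± 0.555 FPKM, and its fitted change was above 0 when libraries were rescaled to a common sum.

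The 4 genes of glutathione synthesis and recycling were split, with 2 higher and 2 lower, and 0 reached an unadjusted p of 0.05. Gclc, the catalytic subunit of glutamate-cysteine ligase, the rate-limiting enzyme of glutathione synthesis, measured 25.77, 22.62 and 22.92 FPKM in the wild type and 27.82, 28.31 and 24.34 FPKM in the knockout. Wild-type library 1 exceeded knockout library 3, and the knockout was the higher library in all 3 pairs. Its fitted difference was 0.17 on the log2 scale (SE 0.096, adjusted p 0.798). Gclm, the modifier subunit of the same ligase, went the other way in its means, with 18.8 ± 2.15 FPKM in the wild type and 17.4 ± 2.19 in the knockout. Gss, glutathione synthetase, averaged 9.72 ± 1.12 and 8.83 ± 1.75 FPKM. Gsr, which returns oxidised glutathione to its reduced form, measured 10.49, 10.28 and 7.75 FPKM in the wild type and 10.22, 10.52 and 9.41 FPKM in the knockout. Its mean difference came from the low wild-type library 3: leaving it out turned the fitted log2 difference from 0.08 to -0.044.

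The glutathione transferases divided evenly, with 8 of 16 tested genes above 0 and 8 below, and a median log2 fold change of -0.00016. That median was 0.028 after rescaling to a common sum and 0.0053 after quantile normalization, so it has no settled sign. At an unadjusted p under 0.05 there was 1 gene, Gstt3, which was lower (3.69% of all genes tested were lower at that level). Gstt3 reached the filter only through its wild-type mean. Gstm1, Gstp1 and Gstm5 held most of the family's FPKM, from 78.5% to 78.8% in wild-type libraries and from 79.7% to 80.5% in knockout libraries. The family's summed FPKM was 779.18, 710.16 and 615.95 in the wild type and 777.58, 703.80 and 629.42 in the knockout, so the 2 genotypes ran almost level and library 3 was the lowest in both.

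Gstm1, the main mu-class transferase, measured 232.12, 213.03 and 185.20 FPKM in the wild type and 259.49, 242.49 and 220.41 FPKM in the knockout. Each knockout library exceeded its numbered wild-type counterpart, and only knockout library 3 lay within the wild-type range. The log2 fold change was 0.20 (SE 0.11, adjusted p 0.797), with a block unadjusted p of 0.0181 (adjusted p 0.298). Gstm1 stood at 0.11 when wild-type library 3 was left out. Gstm2, a neighbouring mu-class gene, had 2.81, 2.08 and 1.64 FPKM in the wild type and 3.36, 3.32 and 2.49 FPKM in the knockout. The order of the libraries was similar at a far lower level, with knockout library 3 below wild-type library 1. Its log2 fold change was 0.36 (SE 0.17, adjusted p 0.790; block unadjusted p 0.0159), and 0.24 without wild-type library 3.

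Gstm4 measured 4.57, 4.03 and 4.30 FPKM in the wild type and 4.64, 4.84 and 4.89 FPKM in the knockout. It was the only member whose knockout values all exceeded the wild-type values, by 0.07 FPKM at the nearest point. Its fitted difference was 0.13 on the log2 scale (SE 0.095). Gstm7, by contrast, held 15.92, 15.43 and 12.27 FPKM in the wild type and 12.51, 12.78 and 8.25 FPKM in the knockout. Only wild-type library 3 lay inside the knockout range, and the log2 fold change was -0.37 (SE 0.17, adjusted p 0.790; block unadjusted p 0.00426). Leaving out knockout library 3 gave -0.18 for Gstm7. The mu-class genes therefore lay on both sides of 0, although they stand side by side on chromosome 3 between 107895854, the start of Gstm5, and 108045179, the end of Gstm4. Gstm5, at 131 ± 19.8 and 132 ± 13.1 FPKM, hardly differed in its means, and Gstm6 averaged 5.35 ± 2.06 and 4.07 ± 1.14 FPKM.

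Gstp1, the pi-class transferase, had 226.35, 222.10 and 183.86 FPKM in the wild type and 220.59, 186.61 and 164.90 FPKM in the knockout. The knockout was lower in each numbered pair, and the groups overlapped. Its log2 fold change was -0.15 (SE 0.14). For Gstp1 it was -0.049 without knockout library 3 and -0.26 without knockout library 1. The neighbouring copy Gstp2 averaged 3.25 ± 1.12 and 2.44 ± 0.332 FPKM. Gsta4, the alpha-class enzyme that clears the lipid peroxidation product 4-hydroxynonenal, measured 47.76, 48.60 and 40.47 FPKM in the wild type and 42.22, 38.95 and 34.18 FPKM in the knockout. Only wild-type library 3 and knockout library 1 crossed. Its fitted difference was -0.24 on the log2 scale (SE 0.11, adjusted p 0.790; block unadjusted p 0.00893).

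Gstt3, a theta-class transferase, measured 1.41, 1.38 and 1.16 FPKM in the wild type and 0.64, 0.92 and 0.56 FPKM in the knockout, and every knockout value lay below every wild-type value. The ratio of the means, knockout over wild type, was 0.537. The fitted difference of log2(FPKM + 1), a scale that understates changes of low genes, was -0.44 (SE 0.13, unadjusted p 0.0120, adjusted p 0.790). Its mean over all libraries, 1.01 FPKM, sat just above the filter, while the knockout mean of 0.707 FPKM lay below it. Gstt3 was thus tested only because of the group in which it was high, and its p is given as a description. The other theta genes, Gstt1 and Gstt2, stand beside it on chromosome 10, and their means lay on the other side of the wild type. The difference between these genes and Gstt3 was not tested. Gstt1 averaged 4.27 ± 0.102 and 4.38 ± 0.337 FPKM, and Gstt2 0.943 ± 0.231 and 1.20 ± 0.339 FPKM. Gstt2 reached the filter only through its knockout mean.

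Of the remaining transferases, Gsto1, the omega-class enzyme, averaged 30.8 ± 2.60 and 30.4 ± 4.21 FPKM. Gstz1, which also acts in tyrosine breakdown, averaged 26.2 ± 5.55 and 28.7 ± 1.68 FPKM, with knockout values inside the wild-type range. Gstk1, of mitochondria and peroxisomes, averaged 9.58 ± 1.31 and 8.54 ± 1.10 FPKM, and Gsta3 1.28 ± 0.564 and 1.41 ± 0.115 FPKM. None of these 4 was separated by genotype.

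**Figure D3:**
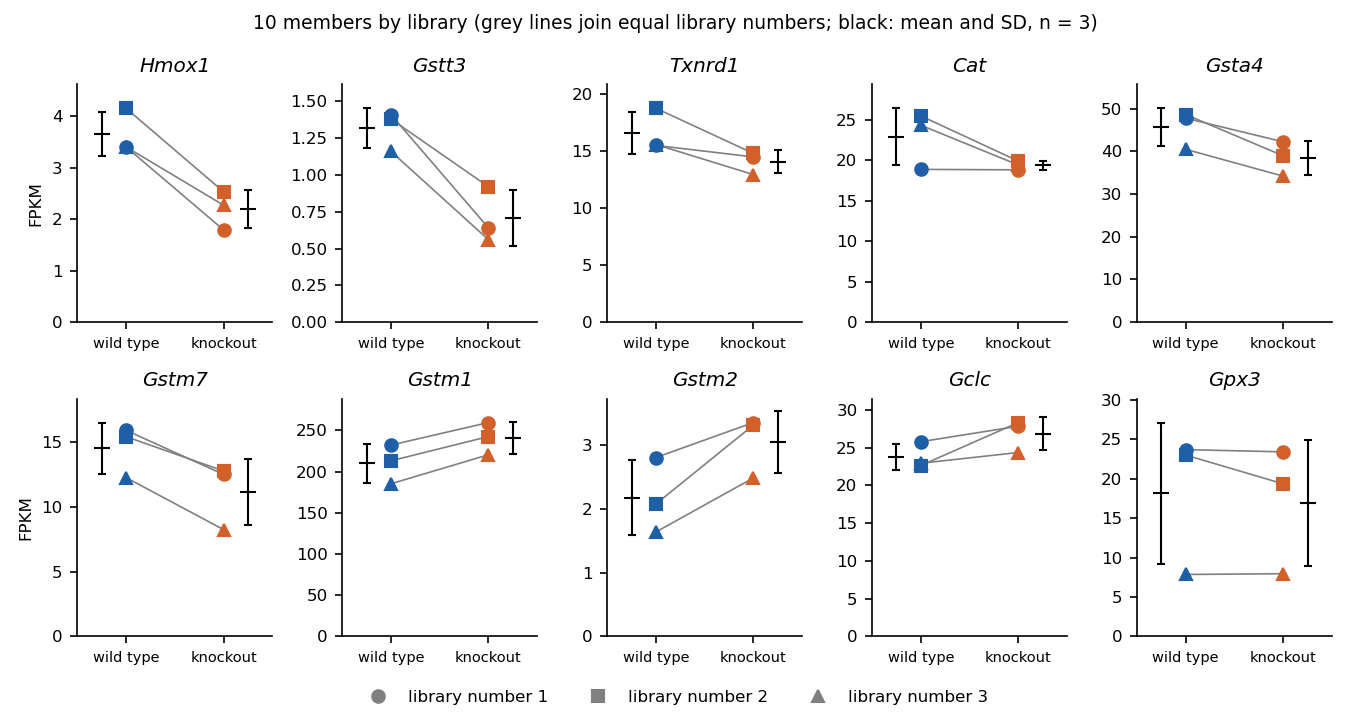
FPKM in each library for 10 members, with same-numbered libraries joined by grey lines and the mean and SD (n = 3) in black; each vertical axis starts at 0. Hmox1, Gstt3 and Txnrd1 have no overlap between genotypes, Gstm1 and Gstm2 are higher in each pair, and Gpx3 is near 8 FPKM in library 3 of both genotypes.

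Hmox1, the inducible heme oxygenase that releases iron, carbon monoxide and biliverdin from heme, had the lowest p of all members. It measured 3.40, 4.15 and 3.40 FPKM in the wild type and 1.79, 2.53 and 2.27 FPKM in the knockout. Every knockout value lay well below the lowest wild-type value, and the ratio of the means was 0.602. The fitted log2 difference was -0.54 (SE 0.13; 95% interval -0.85 to -0.23; unadjusted p 0.00397, adjusted p 0.790). Across all leave-one-out fits it stayed between -0.62 and -0.45. Hmox1 can be induced in microglia, and the median difference of the 12 microglial markers was -0.24 (log2). This marker median became -0.072 when wild-type library 3 was left out, -0.12 for knockout library 2 and -0.42 for wild-type library 1. Of the 12, 2 were free of overlap between genotypes, both lower, against 6.43% of all genes that were lower without overlap. The part of microglia in the Hmox1 values was not tested.

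Hmox2, the constitutive heme oxygenase of neurons, was far more abundant, measuring 54.50, 56.50 and 48.09 FPKM in the wild type and 52.97, 49.77 and 45.16 FPKM in the knockout. Its groups overlapped, and the log2 fold change was -0.10 (SE 0.10). For Hmox2 it was -0.042 without knockout library 3 and -0.17 without wild-type library 3. Nqo1, a quinone reductase and a standard Nrf2 target, averaged 2.92 ± 0.594 and 2.85 ± 0.832 FPKM with a 95% interval of -0.49 to 0.41. Of the 3 genes, only Hmox1 had an unadjusted p under 0.05, and whether its change differs from that of the other two was not tested.

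The 8 members below the filter were Gsta1 and Gpx5, listed at 0 in all 6 libraries, and Gsta2, Gstm3, Gsto2, Gpx2, Gpx6 and Prdx6b. Gpx2, the gut form, had the highest single value of the peroxidases among them, with 0.25, 0.49 and 0.50 FPKM in the wild type and 0.19, 0.25 and 0.13 FPKM in the knockout. Gsto2 had 0.36, 0.26 and 0.41 against 0.53, 0.21 and 0.16 FPKM. Gpx6, Gsta2, Gstm3 and Prdx6b did not exceed 0.46, 0.24, 0.10 and 0.02 FPKM in any library. These levels are reported without a test.

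Several members are so alike that short reads cannot always be assigned to one of them. Gstp1 and Gstp2 share 98.1% of their coding bases, Gsta1 and Gsta2 97.6%, Prdx6 and Prdx6b 92.9%, and Gstm1 is 89.4% identical to Gstm3 and 85.9% to Gstm2. Of the 50-base words in 1 coding transcript of each gene, 62.3% of those of Gstp1 also occur in Gstp2, and 64.3% the other way round. The share was 10.9% for Gstm1, 3.84% for Gstm2, 6.88% for Gstm6 and 26.0% for Gstt3, whose words recur in the annotated gene Gm20441. It was 89.7%, 63.5% and 15.8% for Gsta1, Gsta2 and Gstm3. The split of reads between such genes was made by the authors' quantification and is uncertain, for Gstp2 above all, which is the minor partner of an abundant gene. For 37 of the 50 members no word was shared, Hmox1, Txnrd1, Gsta4, Gstm7, Cat and Gclc among them. Only transcripts annotated as protein-coding were searched, so words shared with pseudogenes or non-coding transcripts were not counted.

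Summaries by role put the same values in the context of each library. As the median distance of the tested members from their wild-type means, on the log2(FPKM + 1) scale, the level was 0.07, 0.09 and -0.14 in wild-type libraries 1, 2 and 3 and 0.01, -0.02 and -0.19 in knockout libraries 1, 2 and 3. Wild-type library 3 lay below 2 of the knockout libraries. The oligodendrocyte marker level of knockout library 3 was -1.69 on the same scale, far from any level reached by a role group.

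**Figure D4:**
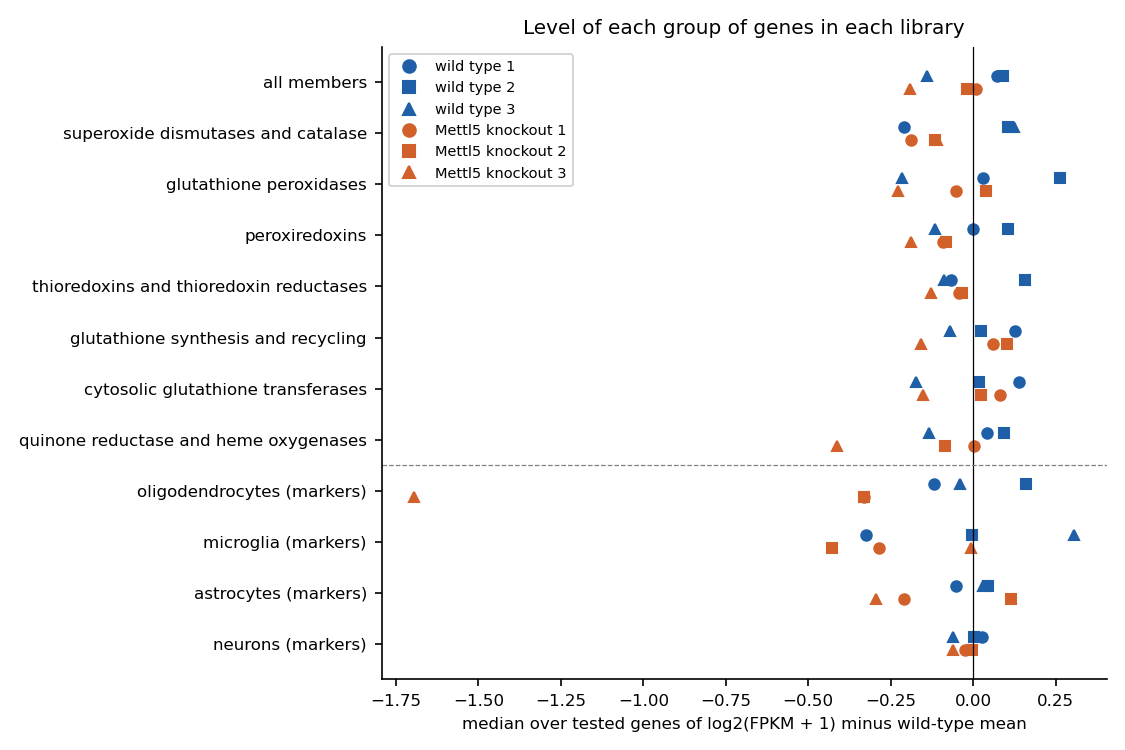
Median distance of each group's tested genes from their wild-type means in log2(FPKM + 1), one symbol per library, for the members, their 7 role groups and 4 marker lists. The role groups lie between -0.41 and 0.26, while the oligodendrocyte markers of knockout library 3 reach -1.69.

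The genes that regulate and supply these enzymes were read from lists of known pathway members. In each of the 8 lists 0 genes passed the adjusted threshold. Of 12 Nrf2 regulators 6 were higher and 6 lower, with 0 at an unadjusted p under 0.05. Nfe2l2, which encodes Nrf2 itself, measured 10.01, 8.83 and 9.20 FPKM in the wild type and 8.23, 9.02 and 7.65 FPKM in the knockout, a log2 fold change of -0.15 (SE 0.10). Cul3, the ubiquitin ligase scaffold that acts with Keap1 to degrade Nrf2, averaged 34.5 and 37.2 FPKM. Of 12 tested genes of cysteine supply and glutathione turnover, 0 reached an unadjusted p of 0.05. The lowest p values there belonged to Abcc1, an exporter of glutathione conjugates, with 3.71, 3.47 and 3.76 against 4.67, 4.99 and 3.76 FPKM, and Chac2, a glutathione-degrading cyclotransferase, with 6.51, 6.95 and 7.94 against 5.64, 5.95 and 7.20 FPKM.

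NADPH is the electron source of the glutathione and thioredoxin reductases. The list on its supply held 16 genes of NADPH production, the pentose phosphate pathway and NADP synthesis, of which 12 were lower and 4 higher. At an unadjusted p under 0.05 there were 2, both lower (3.69% of all genes tested were lower at that level). With the block there were 5, all lower (8.22% of all genes were lower in that fit). Idh1, the cytosolic isocitrate dehydrogenase, had 17.02, 23.28 and 22.33 FPKM in the wild type and 13.50, 12.95 and 14.77 FPKM in the knockout. Its log2 fold change was -0.56 (SE 0.13, unadjusted p 0.00262, adjusted p 0.790). Taldo1, transaldolase of the pentose phosphate pathway, had 54.68, 71.12 and 58.71 against 46.63, 50.08 and 37.43 FPKM. The genotypes overlapped for neither gene, nor for Me1. These 3 of the 16 were all lower, against 6.43% of all genes tested that were lower without overlap.

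Among 16 glutaredoxins and other genes of the thioredoxin system, 4 had fitted differences above 0 and 12 below, with a median of -0.080. At an unadjusted p under 0.05, 2 were higher and 1 lower (2.37% and 3.69% of all genes), and with the block 3 were higher and 3 lower (6.08% and 8.22%). Msrb2, a mitochondrial methionine sulfoxide reductase, measured 11.68, 12.67 and 11.80 FPKM in the wild type and 9.96, 9.17 and 10.97 FPKM in the knockout. Sesn1, a stress-induced sestrin, measured 27.80, 20.76 and 24.00 against 28.92, 31.12 and 28.54 FPKM. Txnip, the thioredoxin-binding inhibitor, was chosen after its values were seen. It had 15.11, 8.76 and 8.57 FPKM in the wild type and 24.51, 18.25 and 10.93 FPKM in the knockout, a log2 fold change of 0.65 (SE 0.32, adjusted p 0.790; block unadjusted p 0.00299). Knockout library 3 lay within the wild-type range, while each knockout library exceeded its numbered counterpart.

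In the selenoprotein list 0 of 17 genes reached an unadjusted p of 0.05. With the block 1 was higher and 1 lower, the genes Pstk and Scly (block unadjusted p 0.0287 and 0.00919). Of all genes, 6.08% were higher and 8.22% lower in that fit. Scly, the selenocysteine lyase that recycles selenium, averaged 5.46 and 4.19 FPKM, and Pstk, a kinase of the selenocysteine tRNA pathway, 9.47 and 11.3 FPKM. Of 7 tested microsomal transferases and glyoxalases 1 was lower at an unadjusted p under 0.05 without the block (3.69% of all genes tested were lower at that level). It was Glo1, which detoxifies methylglyoxal with glutathione. Its libraries held 47.26, 50.32 and 45.80 FPKM in the wild type and 40.83, 42.85 and 38.25 FPKM in the knockout (log2 fold change -0.23, SE 0.08). The abundant microsomal transferase Mgst3 averaged 112 and 121 FPKM.

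Of the 8 genes listed as support for superoxide dismutase and catalase, through copper handling or peroxisomal import, 0 reached an unadjusted p of 0.05. With the block there was 1, lower, the copper chaperone Atox1 (block unadjusted p 0.0351), against 8.22% of all genes lower in that fit. Atox1 averaged 34.0 and 28.6 FPKM, while Pex13, of the peroxisomal import machinery, averaged 10.1 and 9.11 FPKM. Likewise, 0 of 10 genes of heme breakdown, heme synthesis and iron storage reached an unadjusted p of 0.05. Fth1, the ferritin heavy chain that stores the iron released by heme oxygenase, had 1736.43, 1665.14 and 1486.22 FPKM in the wild type and 1534.10, 1450.76 and 1163.17 FPKM in the knockout, with a log2 fold change of -0.24 (SE 0.13) that was -0.12 without knockout library 3. It was the 1 gene of the list past an unadjusted p of 0.05 with the block (0.0142), against 8.22% of all genes lower in that fit. Cpox, an enzyme of heme synthesis, averaged 23.7 and 21.5 FPKM.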

How the data were processed

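Per the labels, poly(A)-selected RNA of brain at postnatal day 28 was sequenced in 3 wild-type and 3 Mettl5-/- libraries. The authors deposited 1 FPKM value per gene and library, as the file headers name it. Bowtie2, RSEM and the build mm10 are named, per the submitters' processing notes, with no version. No annotation release or strand setting is given there. Counts were not used, and the depth behind a value is unknown, so no counting interval is given.

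Gene IDs were matched to the RefSeq gene table of GRCm38.p6 (18450 of 18491 found), which gave coordinates. Genes averaging 1 FPKM or more were fitted with limma 3.58.1 in R 4.3.3 (trend and robust prior) on log2(FPKM + 1), 2-sided, with Benjamini-Hochberg adjustment over 12885 genes and a threshold of 0.05. The steps were tested on simulated data. Single values were compared by exact permutation in SciPy 1.17.1. Tables were made with pandas 2.3.3 and numpy 2.4.6 under Python 3.11.15, plots with matplotlib 3.10.9, and Biopython 1.88 made the alignments of GENCODE M21 coding sequences.

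The members and gene lists were chosen with earlier results of these data known. Named were the 8 tested members with the lowest p in each direction, the most abundant member of each family and role, and the 2 genes of lowest p in each pathway list. All other members are given by their levels. Both genotypes carry the numbers 1 to 3 in their titles, without a stated meaning. Deviations from the genotype means correlated at 0.485, 0.413 and 0.539 between same-numbered libraries, each above 0.1. On this evidence from the values, same-numbered libraries were treated as pairs in the block fit and in the counts of numbered pairs. The main fit, with its SEs, intervals and p-values, and the exact permutation did not use the pairing.

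The alternatives were a pseudocount of 0.1, no filter, a common FPKM sum, quantile normalization, the number as a block, and each library left out in turn. Added after seeing the data was a filter requiring a mean of 1 FPKM in both genotypes.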

Additional observations from a re-analysis of the deposited data

How the results depend on the processing

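The count of members passing the adjusted threshold was 0 under every alternative run. The count of all genes passing was 1 without a filter (Hist2h2aa2) and ranged from 0 to 1 over the leave-one-out fits (Rps27rt, in the fit lacking wild-type library 3), both genes named after their values were seen. For the members, the median log2 fold change kept its sign and ranged from -0.138 to -0.0259 over the leave-one-out fits. It was -0.054 with a common sum. Members at an unadjusted p under 0.05 numbered 4 with a common sum, 4 with quantile normalization, 8 with the replicate block and 2 to 6 when 1 library was left out (6 without wild-type library 1 or 3). The shares of members and of all genes were 9.52% and 6.26% with a common sum, 9.52% and 6.29% with quantile normalization, 19% and 14.3% with the block, 14.3% and 8.59% without wild-type library 1, and 14.3% and 5.2% without wild-type library 3. Without a filter 3 members lay below that p (6.25%, against 5.7% of all genes), Gpx2 being the third. In an alternative chosen after seeing the data, which required a mean of 1 FPKM in both genotypes, the number was 1. Hmox1 and Gstt3 were among them in each of these fits that tested them, the last leaving out Gstt3. Under the filter on the mean over the 6 libraries, Gstt3 passed only through its wild-type mean, so it adds no support to these counts. The filter on both means was not combined with the other alternatives. Members without overlap numbered 5 to 15 when 1 library was left out: 14 for wild-type library 1, 15 for wild-type library 3 and 9 for knockout library 3, against 26.8%, 24.5% and 21.3% of all genes. Those are 33.3%, 35.7% and 21.4% of the members. Smaller groups overlap less often by construction. A common sum raised the median of all genes to 0.0225 and moved the genes above 0 from 6326 to 7269. Gsto1 turned to 0.0038 with a common sum and ranged from -0.13 to 0.058 over the leave-one-out fits. Other ranges that crossed 0 were those of Gsr (-0.044 to 0.15), Gsta3 (-0.067 to 0.29), Gstt1 (-0.021 to 0.061), Gpx4 (-0.13 to 0.028), Sod1 (-0.19 to 0.0025), Txn2 (-0.18 to 0.0071) and Mgst3 (-0.025 to 0.23). The cause was not tested. Leaving out 1 library also moved Gstt2 (0.073 to 0.30), Gstz1 (0.035 to 0.30), Chac2 (-0.26 to -0.095), Cul3 (0.058 to 0.14), Sesn1 (0.19 to 0.39), Atox1 (-0.32 to -0.086) and Cpox (-0.18 to -0.072) by over 1.5 times. Precision is limited by 3 libraries a genotype and unknown depth.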
